A study of Homo sapiens with 12 samples.

Results

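RNA sequencing of HL60 cells was read for 40 genes of mitosis and of the spindle checkpoint, chosen by name out of the 57820 genes of the deposited table. They were sorted into 9 roles: mitotic entry, mitotic kinases with the chromosomal passenger complex, the spindle checkpoint, mitotic exit with sister separation, kinesins with spindle proteins, centromere and kinetochore, cytokinesis, chromosome structure with the proliferation marker MKI67, and the transcription factor FOXM1. All 40 were found once. All 40 had a mean of at least 10 normalized reads over the 12 libraries and were tested, and 35 had a mean of at least 200.

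HL60 is a human acute myeloid leukaemia line of promyelocytic character. One line carried the empty vector pRRL-EV-puro (EV), the other carried pRRL-TFEBS211A-puro, from which doxycycline induces TFEB with the S211A change. TFEB is a regulator that turns on lysosomal and autophagy genes. Each line was grown in RPMI-1640 with fetal bovine serum and given vehicle or doxycycline, which made 4 groups of 3 libraries. The dose listed was 1 µg/ml and the time 48 h. The series calls its triplicates independent biological experiments. The group EV vehicle lacked both drug and transgene, EV doxycycline had the drug alone, TFEB vehicle had the uninduced transgene, and TFEB doxycycline had both drug and transgene. Whether a line was 1 clone is not given in the labels. Reads of the transgene and of the cell's own TFEB cannot be told apart.

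Cells enter mitosis when CDK1 is activated by its cyclins, and the spindle checkpoint then holds them until every chromosome is attached to microtubules. CDC20 next turns on the anaphase promoting complex, which marks securin and the mitotic cyclins for destruction, so that the sister chromatids part and the cell divides. The RNA of most of these genes is low after division and is made again late in the cell cycle, under the control of repressor and activator complexes that share the MuvB core. In bulk RNA, fewer cells in mitosis and less RNA per mitotic cell cannot be told apart.

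Libraries held 4474007 to 22488047 recovered reads. The deposited normalization left the median level of the 7290 expressed nuclear genes (mean of at least 200) uneven, with a relative level of 0.313 in the lowest library (replicate 3 of EV doxycycline) and of 2.21 in the highest (replicate 2 of EV vehicle). Differences are therefore given on the deposited scale and after expressed-gene scaling, which sets this median equal in all libraries. A fall or rise after this scaling is one relative to the median expressed nuclear gene. Which scaling is right cannot be settled from the deposited values. Expressed-gene scaling moved the median log2 difference of all 23128 genes tested between TFEB doxycycline and TFEB vehicle from -0.00 to -0.72. TFEB itself, the check of the labels, had 79.8 to 196 deposited normalized reads in the 9 control libraries and 14470.4 to 22629 in TFEB doxycycline. Mitochondrial genes took 13.3% to 33.1% of reads. Of 8 HL60 genes, 7 (MPO, ELANE, AZU1, PRTN3, CTSG, SPI1 and CD33) were present in every library, and CEBPA was low with a mean of 32.3 normalized reads. The summed deposited level of these 8 ran from 66184 to 217473 in EV vehicle, 5180 to 30421 in EV doxycycline, 49271 to 95860 in TFEB vehicle and 10555 to 15148 in TFEB doxycycline. MPO dominated it, with a mean of 48304 beside 2872 for SPI1, the next highest. From TFEB vehicle to TFEB doxycycline the group mean of SPI1 went from 2508 to 3447 and that of CEBPA from 28.5 to 58.0. ELANE had 2544 and 2458, and MPO, AZU1, PRTN3, CTSG and CD33 were lower. The relation of these sums to the mitosis genes was not tested. The 16 markers of lymphoid, erythroid, epithelial and fibroblast cells had means of 2.85 to 88.8 normalized reads.

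The mitosis genes took a smaller part of the reads in the libraries with induced TFEB S211A. Together the 40 genes took 4386, 4605 and 5111 reads per 1000000 nuclear-gene reads in EV vehicle, 5323, 4972 and 4726 in EV doxycycline, 3882, 4053 and 4795 in TFEB vehicle, and 1871, 1317 and 1297 in TFEB doxycycline. The 3 TFEB doxycycline libraries lay below the other 9 with no overlap. As a share of nuclear-gene reads, this sum does not change with the factor applied to a library. It also falls where other nuclear genes take more reads. MKI67 alone made up 24.8% to 32.6% of it, and without MKI67 the order was kept, with 941 to 1264 in TFEB doxycycline against 2720 to 3842 in the controls. The summed normalized reads of the 40 genes on the deposited scale, not taken as a share, overlapped between groups. They were 18141 to 24892 in TFEB doxycycline and 12688 to 81170 in the controls.

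**Figure D1:**
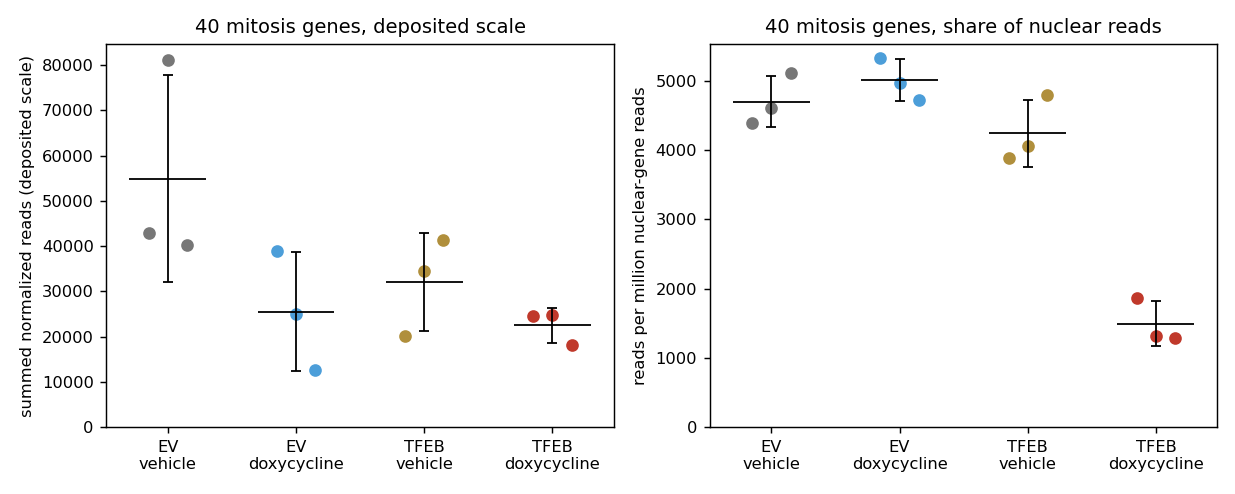
Summed level of the 40 mitosis genes in each library on the deposited scale (left, normalized reads) and as reads per 1000000 nuclear-gene reads (right); points are libraries, long bars group means and error bars SD (n = 3). On the right the TFEB doxycycline libraries sit at 1297 to 1871, below the 9 others at 3882 to 5323, while on the left the groups overlap.

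Between TFEB doxycycline and TFEB vehicle, 1 of the 40 genes (KIF20A) fell and 0 rose on the deposited scale by limma at an adjusted p under 0.05, where 4.66% of all genes tested and 3.51% of expressed nuclear genes were called lower, and 17.4% and 31.5% higher. At an unadjusted p under 0.05 there were 5 lower and 0 higher. The count of 1 became 5 with replicate 3 of EV doxycycline left out, 3 with replicate 2 of EV vehicle, replicate 1 of EV doxycycline or replicate 1 of TFEB vehicle left out, and 0 in the cases given for KIF20A below. After expressed-gene scaling 38 of 40 fell and 0 rose, where 20.7% of all genes tested and 33.2% of expressed nuclear genes were called lower, and 14.4% and 34.4% higher. AURKB and CENPA were not called. The share of the 40 called lower was thus under the background as deposited and above it after scaling. All 35 genes with a mean of at least 200 were among the 38. The median log2 difference of the 40 was -0.53 on the deposited scale, beside 0.73 for expressed nuclear genes, and -1.28 after expressed-gene scaling, beside -0.02. The gap between the medians was thus -1.27 on the deposited scale and -1.26 after scaling. Over the 35 fits made (the deposited one and its 34 alternatives) this gap lay between -1.41 and -1.15. In each of them all 40 genes lay below the median of expressed nuclear genes. A factor per library shifts all its genes alike, so other scalings could not move this gap beyond the pseudocount. The replicate block and the filter on low values could not move it either. Only the pseudocount, left-out libraries, edgeR and DESeq2 could.

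**Figure D2:**
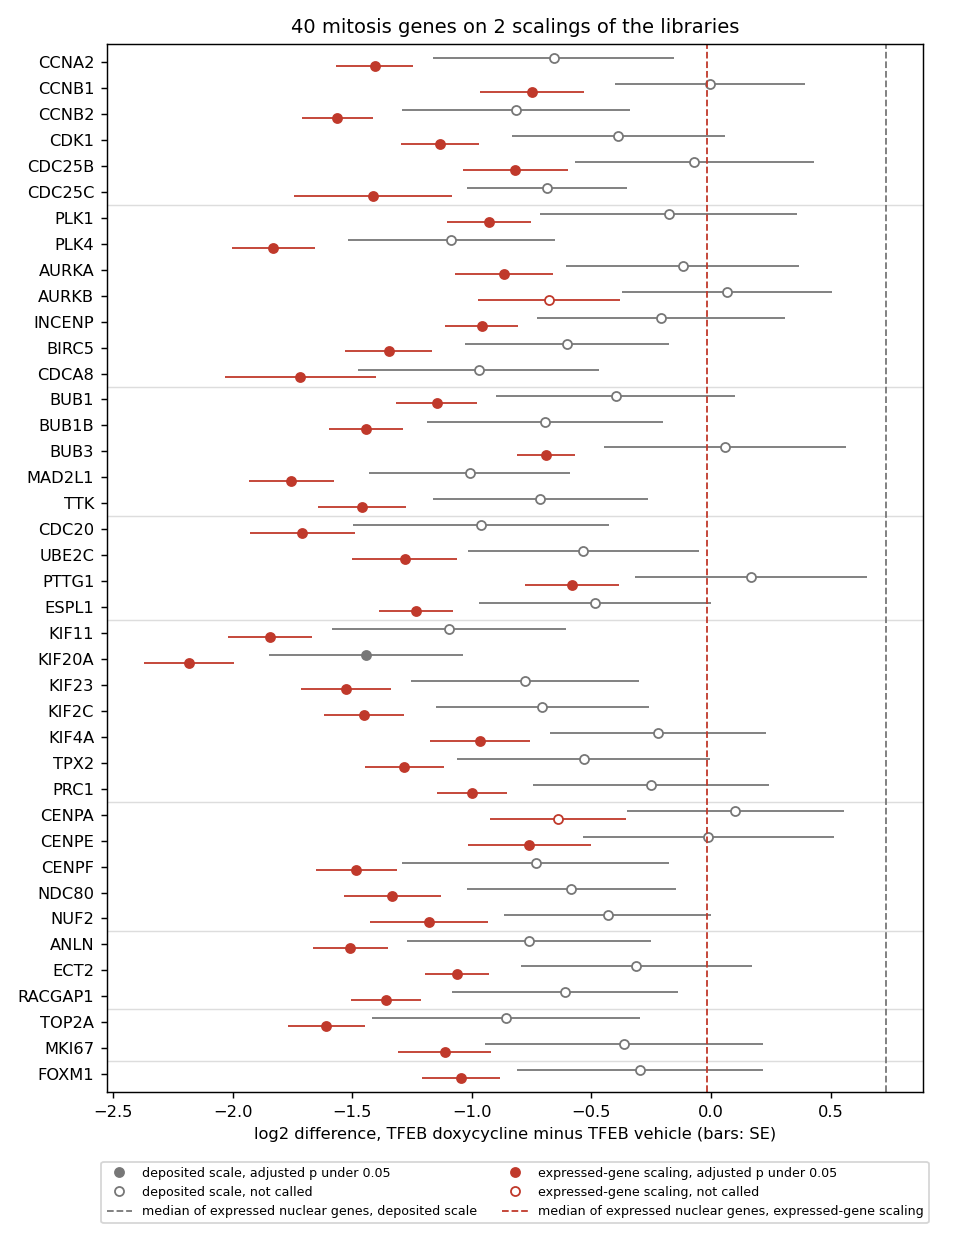
Log2 difference of each mitosis gene between TFEB doxycycline and TFEB vehicle, with its SE, on the deposited scale (grey) and after expressed-gene scaling (red); filled points are called at an adjusted p under 0.05, dashed lines are the medians of expressed nuclear genes, and thin lines part the 9 roles. On either scale every gene lies left of the dashed line of its colour, 0.73 for grey and -0.02 for red, and KIF20A lies farthest left.

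Each TFEB doxycycline library lay below all 9 control libraries for 38 of the 40 genes after expressed-gene scaling, a pattern found for 17.7% of all genes tested and 29.0% of expressed nuclear genes. On the deposited scale it held for 1 of 40, against 2.95% of all genes tested and 0.960% of expressed nuclear genes. After scaling, TFEB doxycycline replicate 1 was the highest of its 3 libraries for 35 of the 40 genes. The median coefficient of variation of the 40 genes within a group was 10.3% to 16.9% after expressed-gene scaling and 18.6% to 49.3% on the deposited scale.

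Promoters of genes of this phase are known for CCAAT boxes and for the cell cycle homology region (CHR), to which the MuvB complexes bind. The 40 genes were therefore read for them, in the 250 bases before the RefSeq transcription start (GRCh38.p14), which the promoter table gave for 32 of the 40. CCAAT, on either strand, was in 71.9% of these 32, in 33.0% of 27305 promoters in all and in 35.7% of the 5644 of expressed nuclear genes. TTTGAA or TTCGAA, the CHR letters on either strand, were in 53.1% of the 32, in 14.6% of all and in 9.89% of those of expressed genes. Both motifs stood together in 46.9% of the 32 and in 5.24% of all. CACGTG, the core of the site TFEB binds, was in 5 of 32 (15.6%), against 6.49% of all and 10.7% of those of expressed genes. TTTGGCGC or TTTCGCGC, letters of an E2F site, were in 0 of 32 and in 0.996% of all. A match describes letters and no site in use.

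The last 150 bases before the start are shown for 6 genes: 5 with large or much described differences below, and CENPA, which was not called. Capitals mark CCAAT (or ATTGG on the other strand) and TTTGAA or TTCGAA (or TTCAAA). The 6 stretches are KIF20A (chr5:138178962-138179111, plus strand), CDC20 (chr1:43358831-43358980, plus strand), CCNB2 (chr15:59104996-59105145, plus strand), PLK1 (chr16:23678739-23678888, plus strand), KIF11 (chr10:92592980-92593129, plus strand) and CENPA (chr2:26785906-26786055, plus strand).
KIF20A: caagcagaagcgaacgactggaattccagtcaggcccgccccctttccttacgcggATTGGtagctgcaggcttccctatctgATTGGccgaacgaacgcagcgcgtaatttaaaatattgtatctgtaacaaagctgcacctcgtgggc
CDC20: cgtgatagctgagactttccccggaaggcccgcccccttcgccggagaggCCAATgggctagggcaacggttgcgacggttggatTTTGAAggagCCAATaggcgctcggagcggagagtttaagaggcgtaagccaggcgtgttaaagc
CCNB2: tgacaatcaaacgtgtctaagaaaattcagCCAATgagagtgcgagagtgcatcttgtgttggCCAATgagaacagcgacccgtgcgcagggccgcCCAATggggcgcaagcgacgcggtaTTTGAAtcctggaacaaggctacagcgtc
PLK1: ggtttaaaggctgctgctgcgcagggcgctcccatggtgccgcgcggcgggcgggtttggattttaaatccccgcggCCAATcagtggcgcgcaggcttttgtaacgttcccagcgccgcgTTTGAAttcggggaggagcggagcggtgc
KIF11: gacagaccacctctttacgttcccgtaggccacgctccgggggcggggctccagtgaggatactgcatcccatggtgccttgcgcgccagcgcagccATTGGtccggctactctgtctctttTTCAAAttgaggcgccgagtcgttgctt
CENPA: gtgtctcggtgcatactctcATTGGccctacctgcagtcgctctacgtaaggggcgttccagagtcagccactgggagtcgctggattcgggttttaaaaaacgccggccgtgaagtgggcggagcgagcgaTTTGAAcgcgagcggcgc
In the stretches shown CCNB2 holds 3 CCAAT boxes and PLK1 holds 1, and in both the CHR begins 29 bases before the start. KIF20A, the gene with the largest fall, holds 2 CCAAT boxes and no CHR letters in its 250 bases. CENPA holds both motifs.

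KIF20A, a kinesin that carries the chromosomal passenger complex to the midzone of the spindle, was the gene that fell on both scales. On the deposited scale it had 248, 451 and 213 in EV vehicle, 244, 211.4 and 85.2 in EV doxycycline, 111, 206 and 236 in TFEB vehicle, and 51.3, 72.1 and 70.9 in TFEB doxycycline. After expressed-gene scaling it had 207, 204 and 214 in EV vehicle, 270.1, 331 and 272 in EV doxycycline, 178, 202 and 227 in TFEB vehicle, and 40.02, 39.7 and 52.3 in TFEB doxycycline. On either scale each TFEB doxycycline library was below each of the 9 others. The log2 difference from TFEB vehicle was -1.44 ± 0.41 (SE, limma adjusted p = 0.0071) on the deposited scale and -2.18 ± 0.19 (adjusted p = 9.54e-08) after scaling, the latter a 4.54-fold fall. The deposited call was lost without TFEB vehicle replicate 3 (adjusted p = 0.0562) and without TFEB doxycycline replicate 1 (0.0507).

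All 7 kinesin and spindle genes, KIF20A among them, fell after expressed-gene scaling, with a median log2 difference of -1.45. On the deposited scale KIF20A alone of the 7 fell, and the median was -0.70. KIF11, the motor that pushes the spindle poles apart, had 667, 715 and 996 in EV vehicle, 788, 762 and 883 in EV doxycycline, 578, 652 and 912 in TFEB vehicle, and 210.7, 176 and 198 in TFEB doxycycline after scaling. No TFEB doxycycline library reached the lowest control. Its log2 difference from TFEB vehicle was -1.84 ± 0.18 (SE, limma adjusted p = 3.2e-07), and -1.10 ± 0.49 (adjusted p = 0.107) on the deposited scale. TPX2, which activates AURKA and helps to build microtubules near chromosomes, had 1342, 1339 and 1475 in EV vehicle, 1354, 1375 and 1253 in EV doxycycline, 940.1, 1312 and 1175 in TFEB vehicle, and 628, 413 and 387 in TFEB doxycycline. TPX2 differed by -1.28 ± 0.17 after scaling and by -0.53 ± 0.53 as deposited. KIF23, KIF2C, KIF4A and PRC1, which bundle, move along or shorten spindle microtubules, differed by -1.53 to -0.97 after scaling and none of them was called as deposited.

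Mitotic exit was led by CDC20, the activator of the anaphase promoting complex. CDC20 had 673, 1723 and 501 in EV vehicle, 1049, 865 and 233 in EV doxycycline, 300.4, 723 and 600.0 in TFEB vehicle, and 253, 351 and 198 in TFEB doxycycline on the deposited scale, where TFEB doxycycline overlapped EV doxycycline and TFEB vehicle. After expressed-gene scaling it had 562, 779 and 502 in EV vehicle, 1162, 1353 and 746 in EV doxycycline, 481, 708 and 576 in TFEB vehicle, and 197, 193 and 146 in TFEB doxycycline. There the TFEB doxycycline libraries were the 3 lowest and the EV doxycycline libraries stood high, 2 of them above every vehicle library. The log2 difference from TFEB vehicle was -0.96 ± 0.53 as deposited (SE, limma adjusted p = 0.214) and -1.71 ± 0.22 after scaling (adjusted p = 9.08e-06). UBE2C, the ubiquitin-conjugating enzyme of that complex, had 502, 502 and 377 in EV vehicle, 506, 411 and 433 in EV doxycycline, 501, 525 and 436 in TFEB vehicle, and 309, 179 and 143 in TFEB doxycycline after scaling and differed by -1.28 ± 0.22. ESPL1, the protease separase that cuts cohesin, differed by -1.23 ± 0.15. PTTG1, the securin that holds separase back, had the smallest fall of the 38: its log2 difference was -0.58 ± 0.20 after scaling (adjusted p = 0.0289) and turned to 0.17 ± 0.48 as deposited (adjusted p = 0.844). The scaled call of PTTG1 was lost when replicate 2 or 3 of TFEB vehicle was left out (limma adjusted p = 0.0755 and 0.124) and when replicate 2 or 3 of TFEB doxycycline was (0.116 and 0.0914).

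Of the 6 genes of mitotic entry, 6 fell after scaling and 0 as deposited. CCNB1, a B-type cyclin that activates CDK1, had 184, 403 and 212 in EV vehicle, 136, 127 and 80.7 in EV doxycycline, 95.9, 200.1 and 209 in TFEB vehicle, and 149, 202 and 132 in TFEB doxycycline on the deposited scale. After scaling it had 154, 182 and 213 in EV vehicle, 151, 198 and 258 in EV doxycycline, 154, 196 and 200.3 in TFEB vehicle, and 116, 111 and 97.3 in TFEB doxycycline. The TFEB doxycycline libraries were spread among the controls on the first scale and were the 3 lowest on the second. Its log2 difference from TFEB vehicle was -0.00 ± 0.40 (SE, limma adjusted p = 0.996) as deposited and -0.75 ± 0.22 (adjusted p = 0.0125) after scaling, where the call was lost without TFEB doxycycline replicate 3 (adjusted p = 0.0643).

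CCNB2, the other B-type cyclin, went down further. It had 498, 533 and 596 in EV vehicle, 567, 579.8 and 525 in EV doxycycline, 412, 527 and 567 in TFEB vehicle, and 184, 144 and 178 in TFEB doxycycline after scaling, with a log2 difference of -1.56 ± 0.15 (SE, limma adjusted p = 3.12e-07) and of -0.82 ± 0.48 as deposited (adjusted p = 0.24). CCNA2, the cyclin of S phase and early mitosis, had 985, 961 and 966 in EV vehicle, 787, 754 and 768 in EV doxycycline, 810.0, 963 and 857 in TFEB vehicle, and 458, 279 and 279 in TFEB doxycycline. CDK1, the kinase itself, had 301, 306 and 374 in EV vehicle, 327, 321 and 321 in EV doxycycline, 276, 302 and 402 in TFEB vehicle, and 154, 137 and 149 in TFEB doxycycline. In each of these 3 genes the lowest control library was above the highest TFEB doxycycline library. CCNA2 differed by -1.41 ± 0.16 and CDK1 by -1.13 ± 0.16 after scaling, against -0.66 ± 0.50 and -0.39 ± 0.44 as deposited. CDC25B and CDC25C, phosphatases that activate CDK1, differed by -0.82 ± 0.22 and -1.41 ± 0.33 after scaling. The call of CDC25B was lost without TFEB doxycycline replicate 3 (log2 difference -0.61, adjusted p = 0.0612).

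Of the 7 mitotic kinases and subunits of the chromosomal passenger complex, 6 fell after scaling and 0 as deposited. PLK4, the kinase of centriole duplication, had 418, 356 and 432 in EV vehicle, 339.8, 369.9 and 349.8 in EV doxycycline, 342, 338 and 368 in TFEB vehicle, and 122, 74.0 and 103 in TFEB doxycycline after scaling. Its log2 difference was -1.83 ± 0.17 (SE, limma adjusted p = 2.7e-07), and -1.09 ± 0.43 (adjusted p = 0.0657) as deposited. PLK1, a kinase needed for spindle assembly and for entry into mitosis, had 945, 1103 and 984 in EV vehicle, 1126, 968 and 737 in EV doxycycline, 942, 1072 and 999 in TFEB vehicle, and 707, 467 and 443 in TFEB doxycycline. TFEB doxycycline replicate 1 lay close under the lowest control and the other two farther below. PLK1 differed by -0.93 ± 0.18 after scaling (adjusted p = 0.000471) and by -0.18 ± 0.54 as deposited. AURKA, the kinase of the spindle poles, had 493, 506 and 439 in EV vehicle, 479, 468 and 422 in EV doxycycline, 358, 516 and 439.7 in TFEB vehicle, and 355, 205 and 183 in TFEB doxycycline, a log2 difference of -0.87 ± 0.21 after scaling and -0.12 ± 0.49 as deposited.

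AURKB, the kinase of the passenger complex, was 1 of the 2 genes not called. It had 161, 169 and 154 in EV vehicle, 212, 151 and 120.4 in EV doxycycline, 186, 210.9 and 153 in TFEB vehicle, and 200.1, 81.7 and 88.3 in TFEB doxycycline after scaling. TFEB doxycycline replicate 1 lay among the controls and the other two lay below all of them. The log2 difference from TFEB vehicle was -0.68 ± 0.30 (SE, limma adjusted p = 0.0859) after scaling and 0.07 ± 0.44 (adjusted p = 0.933) as deposited. Without TFEB doxycycline replicate 1 the scaled difference was -1.06 and was called (adjusted p = 0.00344). CDCA8, another subunit, had 446, 463 and 337 in EV vehicle, 446, 422 and 206 in EV doxycycline, 405, 459.6 and 319.5 in TFEB vehicle, and 203, 78.7 and 103 in TFEB doxycycline and fell with a log2 difference of -1.72 ± 0.32 after scaling. CDCA8 also had a low control, EV doxycycline replicate 3. INCENP, the scaffold, and BIRC5, survivin, differed by -0.96 ± 0.15 and -1.35 ± 0.18.

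The spindle checkpoint genes all fell after scaling (5 of 5, median -1.44) and none was called as deposited. MAD2L1, which binds and holds CDC20, had 236, 258 and 328 in EV vehicle, 244, 215 and 247 in EV doxycycline, 262, 261 and 346 in TFEB vehicle, and 86.6, 82.9 and 83.8 in TFEB doxycycline after scaling. Its 3 TFEB doxycycline values lay close together and far below the lowest control. Its log2 difference was -1.75 ± 0.18 (SE, limma adjusted p = 5.76e-07), and -1.01 ± 0.42 (adjusted p = 0.0811) as deposited. TTK, the kinase that starts checkpoint signalling, had 381, 414 and 468 in EV vehicle, 351, 413 and 358 in EV doxycycline, 359.7, 377 and 399 in TFEB vehicle, and 191, 108 and 123 in TFEB doxycycline and differed by -1.46 ± 0.18 after scaling. BUB1, a kinase at kinetochores, had 758, 855 and 983 in EV vehicle, 797, 893 and 935 in EV doxycycline, 715, 749 and 973 in TFEB vehicle, and 472, 303 and 333 in TFEB doxycycline and differed by -1.15 ± 0.17. BUB1B, a CDC20 inhibitor of the same family, differed by -1.44 ± 0.16.

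BUB3, which brings both BUB kinases to kinetochores, fell least in this role. It had 1010.0, 959 and 1042 in EV vehicle, 777, 796 and 984 in EV doxycycline, 868, 979 and 1070.2 in TFEB vehicle, and 598, 607 and 596 in TFEB doxycycline after scaling, the TFEB doxycycline libraries being nearly equal to each other and below every control. The log2 difference was -0.69 ± 0.12 (SE, limma adjusted p = 0.00024) after scaling and turned to 0.06 ± 0.51 (adjusted p = 0.948) as deposited.

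**Figure D3:**
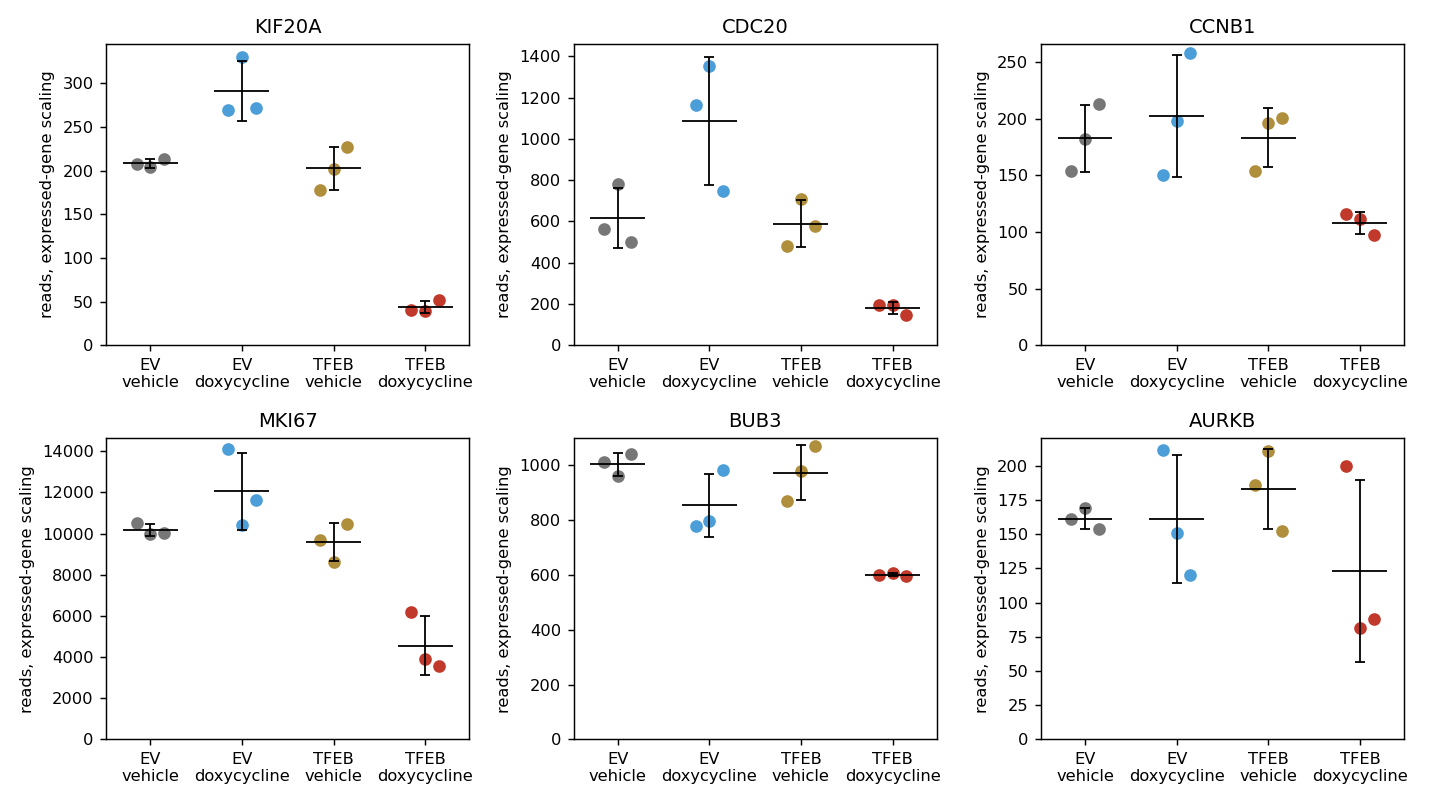
Levels of KIF20A, CDC20, CCNB1, MKI67, BUB3 and AURKB in each library after expressed-gene scaling; points are libraries, long bars group means, error bars SD (n = 3), and each axis starts at 0. In the first 5 the TFEB doxycycline libraries are the 3 lowest, and in AURKB 1 of them, at 200.1, lies among the controls.

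At the centromere and kinetochore 4 of 5 genes fell after scaling and 0 of 5 as deposited. CENPF, a large kinetochore protein made late in the cycle, had 2734, 2931 and 3854 in EV vehicle, 3495, 3227 and 3794 in EV doxycycline, 2489.9, 2542 and 3834 in TFEB vehicle, and 1140.1, 1009 and 963 in TFEB doxycycline after scaling. NDC80, the kinetochore's link to microtubules, had 397, 341 and 581 in EV vehicle, 460.2, 527 and 739.8 in EV doxycycline, 434, 377 and 486 in TFEB vehicle, and 189, 157 and 167 in TFEB doxycycline. In both, no TFEB doxycycline library reached the controls. CENPF differed by -1.48 ± 0.17 and NDC80 by -1.33 ± 0.20 (SE) after scaling, against -0.73 ± 0.56 and -0.58 ± 0.44 as deposited. NUF2, the partner of NDC80, differed by -1.18 ± 0.25, and CENPE, a kinetochore motor, by -0.76 ± 0.26. The call of CENPE was lost without TFEB vehicle replicate 3 or any 1 TFEB doxycycline library (adjusted p of 0.0696 to 0.138, limma).

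CENPA, the centromeric histone, was the other gene not called. After scaling it had 146, 193 and 130.2 in EV vehicle, 184, 173 and 86.0 in EV doxycycline, 135, 168 and 139 in TFEB vehicle, and 115, 72.2 and 98.2 in TFEB doxycycline. The overlap lay in replicate 3 of EV doxycycline, and the other 8 controls were above all TFEB doxycycline libraries. Its log2 difference from TFEB vehicle was -0.64 ± 0.28 (SE, limma adjusted p = 0.0892) after scaling and 0.10 ± 0.45 (adjusted p = 0.9) as deposited. Without EV doxycycline replicate 3, which entered the estimate of the spread, the scaled difference was called (-0.63, adjusted p = 0.0242).

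All 3 cytokinesis genes fell after scaling and 0 as deposited. ANLN, which organizes the contractile ring, had 945, 1032 and 1069 in EV vehicle, 1278, 1304 and 1236 in EV doxycycline, 877, 917 and 903 in TFEB vehicle, and 436, 265 and 271 in TFEB doxycycline after scaling. RACGAP1, a subunit of the centralspindlin complex with KIF23, had 568, 533 and 580.2 in EV vehicle, 688, 593 and 637 in EV doxycycline, 566, 516 and 521 in TFEB vehicle, and 261, 195 and 176 in TFEB doxycycline. The TFEB doxycycline libraries lay below all controls in both. ANLN differed by -1.51 ± 0.16 and RACGAP1 by -1.36 ± 0.14 (SE) after scaling, and by -0.76 ± 0.51 and -0.61 ± 0.47 as deposited. ECT2, which activates RHOA at the division plane, differed by -1.06 ± 0.13 after scaling.

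TOP2A, which untangles sister DNA, and MKI67, the coat protein of mitotic chromosomes used to mark cycling cells, both fell after scaling. TOP2A had 2745, 2898 and 3685 in EV vehicle, 3131, 2883 and 2919 in EV doxycycline, 2109.8, 2629 and 3432 in TFEB vehicle, and 972, 822 and 839 in TFEB doxycycline. MKI67 had 12578, 22079.9 and 10019.7 in EV vehicle, 12710.3, 6650.4 and 3647 in EV doxycycline, 6048, 8808 and 10899.7 in TFEB vehicle, and 7946, 7099 and 4835 in TFEB doxycycline as deposited. After scaling MKI67 had 10505, 9989 and 10054 in EV vehicle, 14089.7, 10402 and 11659 in EV doxycycline, 9683, 8628 and 10466 in TFEB vehicle, and 6193, 3906 and 3563 in TFEB doxycycline, with replicate 1 of TFEB doxycycline well above the other two and still below each control. TOP2A differed by -1.61 ± 0.16 (SE, limma adjusted p = 5.49e-07) after scaling and -0.86 ± 0.56 as deposited. MKI67 differed by -1.11 ± 0.19 (adjusted p = 0.000217) and -0.36 ± 0.58.

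FOXM1, the transcription factor that joins the MuvB core to raise G2 and M phase genes, had 845, 901 and 966 in EV vehicle, 975, 872 and 843 in EV doxycycline, 728, 781 and 948 in TFEB vehicle, and 515, 384 and 308 in TFEB doxycycline after scaling. Its TFEB doxycycline libraries were the 3 lowest. The log2 difference was -1.05 ± 0.16 (SE, limma adjusted p = 7e-05), and -0.30 ± 0.52 (adjusted p = 0.729) as deposited.

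The place of each gene among the others was compared too. Each gene was set against the mean of the other 39 in its own library, which no scaling of libraries can change beyond the pseudocount. In TFEB doxycycline 4 genes lay lower in this order than in all 9 controls: KIF20A, KIF11, PLK4 and TOP2A. Another 7 lay higher than in all 9: PRC1, INCENP, PLK1, CENPA, BUB3, PTTG1 and AURKB. The remaining 29 overlapped. Relative to the mean of the controls, KIF20A differed by -1.09 and CDC20 by -0.71 on the log2 scale, while AURKB differed by 0.78 and PTTG1 by 0.75. For AURKB replicate 1 of TFEB doxycycline stood well above the other two. These positions are given with no test.

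**Figure D4:**
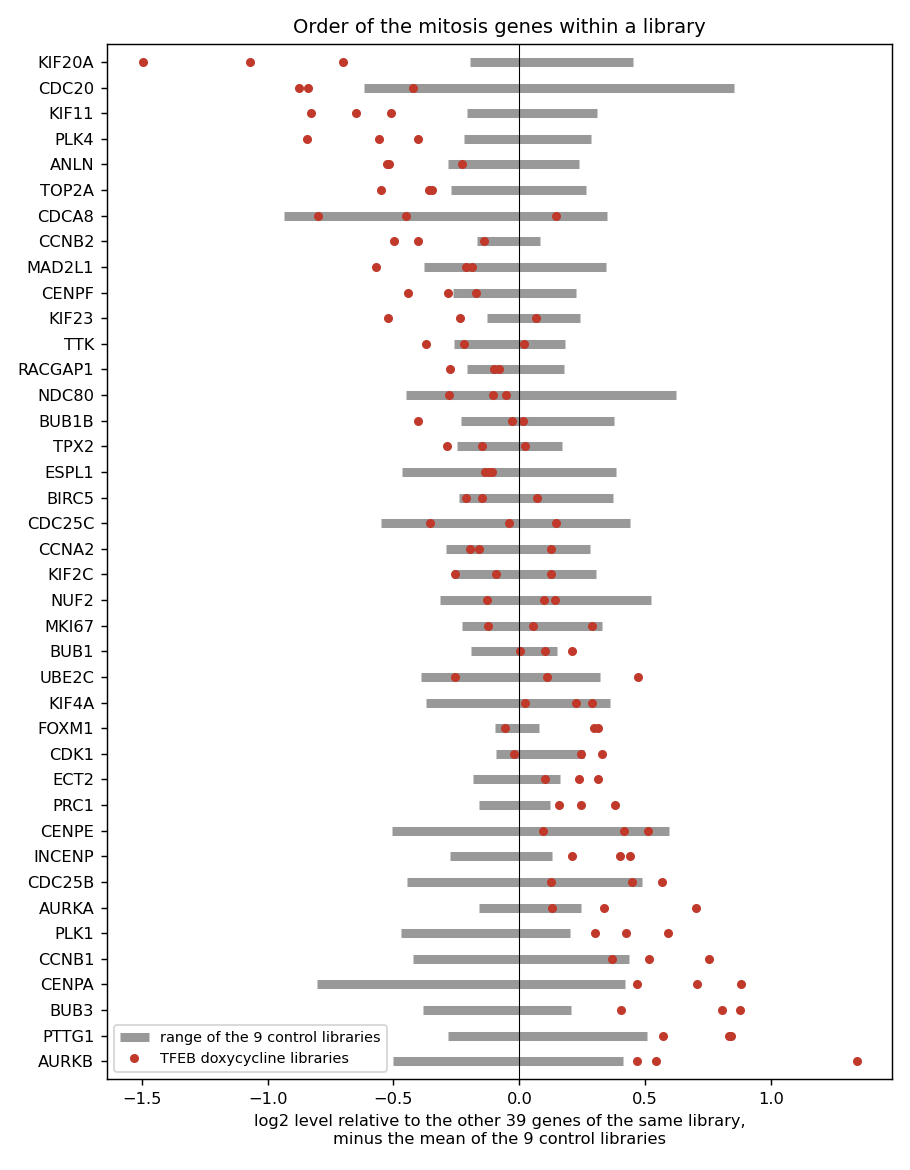
Log2 level of each mitosis gene relative to the other 39 of the same library, as the difference from the mean of the 9 control libraries; grey bars span the control libraries and red points are the 3 TFEB doxycycline libraries. KIF20A, KIF11, PLK4 and TOP2A have all 3 points left of their grey bar, and 7 genes at the bottom, from PRC1 to AURKB, have all 3 right of it, with others that overlap between them.

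TFEB doxycycline was also set against EV doxycycline, with the drug in both lines. These comparisons share the TFEB doxycycline libraries. KIF20A alone was called lower as deposited (1 of 40, against 5.37% of all genes tested and 0.686% of expressed nuclear genes). None of the 40 was called higher by limma, 1 having an unadjusted p under 0.05, while 27.2% and 55.8% were called higher. After expressed-gene scaling 38 of 40 fell, against 57.6% of all genes tested and 35.4% of expressed nuclear genes, again without AURKB and CENPA, and 0 rose, against 14.2% and 36.4%. The median of the 40 was -0.05 as deposited and -1.43 after scaling, where that of expressed nuclear genes was 1.38 and 0.01. Over all genes tested it was 0.07 and -1.25. KIF20A differed by -1.34 ± 0.41 (SE, limma adjusted p = 0.00913) as deposited and -2.70 ± 0.19 (adjusted p = 8.99e-09) after scaling. CDC20 differed by -1.19 ± 0.53 (adjusted p = 0.0812) and -2.57 ± 0.22 (adjusted p = 9.53e-08). CCNB1 changed sign with the scale, from 0.50 ± 0.40 (adjusted p = 0.336) as deposited to -0.87 ± 0.22 (adjusted p = 0.00384). The deposited call of KIF20A was lost without EV doxycycline replicate 2 (adjusted p = 0.0561) or TFEB doxycycline replicate 1 (0.0550). With replicate 1 of EV doxycycline left out there were 2 higher calls, and with replicate 2 of EV vehicle or replicate 3 of EV doxycycline left out there were 2 lower ones.

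Under doxycycline alone the median difference of the mitosis genes lay close to that of expressed genes in general. On the deposited scale 17 of 40 were called lower in EV doxycycline than in EV vehicle and 0 higher, where 23.3% of all genes tested and 51.2% of expressed nuclear genes were called lower and 3.39% and 0.37% higher. The median of the 40 was -1.25 beside -1.29 for expressed nuclear genes. The count of 17 became 0 with replicate 2 of EV vehicle left out and 0 with replicate 3 of EV doxycycline left out, the libraries at the ends of the expressed-gene level. It became 36 with replicate 1 of EV doxycycline left out and 6 with replicate 2. With the replicate number as a block, which paired these libraries, it was 27. After expressed-gene scaling limma called 0 of 40 lower, 0 also at an unadjusted p under 0.05, where 5.75% of all genes tested and 17.5% of expressed nuclear genes were called lower. It called 2 higher, where 44.1% of all genes tested and 20.9% of expressed nuclear genes were called higher.

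The 2 that rose were CDC20 and KIF20A. CDC20 went from 562, 779 and 502 in EV vehicle to 1162, 1353 and 746 in EV doxycycline after scaling. The first 2 of these lay above every EV vehicle library and the third among them. The log2 difference was 0.80 ± 0.22 (SE, limma adjusted p = 0.0164), and -0.48 ± 0.53 (adjusted p = 0.477) as deposited. KIF20A rose by 0.47 ± 0.19 (adjusted p = 0.0477) after scaling, with all 3 EV doxycycline libraries above EV vehicle, and stood at -0.81 ± 0.41 (adjusted p = 0.121) as deposited. CCNB1 was at 0.12 ± 0.22 (adjusted p = 0.633) after scaling and at -1.16 ± 0.40 (adjusted p = 0.0307) as deposited. With the replicate block and expressed-gene scaling 4 genes were called higher, and 0 lower, with CDC20 (adjusted p = 0.00114) and KIF20A (0.0381) still called. The count of 2 became 0 with replicate 2 of EV doxycycline left out. It became 1 without replicate 1 or 2 of EV vehicle, without replicate 2 or 3 of TFEB vehicle, and without replicate 2 of TFEB doxycycline. It became 3 without replicate 3 of EV vehicle, replicate 1 of EV doxycycline or replicate 1 of TFEB doxycycline.

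Before induction no mitosis gene was called different between the lines. Between TFEB vehicle and EV vehicle limma called 0 of 40 lower and 0 higher on either scale, and 0 of 23128 over all genes (0% of them and 0% of expressed nuclear genes). Over all genes 670 were lower and 1084 higher at an unadjusted p under 0.05 as deposited. Among the 40, 0 had an unadjusted p under 0.05, and edgeR and DESeq2 on recovered reads called 0. The log2 differences of the 40 ran from -0.95 to -0.29 as deposited, with a median of -0.73 beside -0.66 for expressed nuclear genes, and from -0.29 to 0.36 after scaling. KIF20A was at -0.05 ± 0.19, CDC20 at -0.06 ± 0.22 and CCNB1 at 0.01 ± 0.22 (SE) after scaling.

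The interaction asks whether the response to doxycycline differed between the lines. As deposited limma called 0 of 40 lower and 0 higher, with 0 lower and 4 higher at an unadjusted p under 0.05. There, 6.15% of all genes tested and 0.0686% of expressed nuclear genes were called lower, and 29.2% and 62.6% higher, and edgeR on recovered reads called 2 lower and DESeq2 1 lower and 1 higher. After expressed-gene scaling 38 of 40 were called lower, against 57.8% of all genes tested and 29.9% of expressed nuclear genes, and 0 higher, against 11% and 31.1%. The median of the 40 was 0.72 as deposited beside 2.04 for expressed nuclear genes, and -1.31 beside 0.01 after scaling. Over all genes tested the median was 0.31 as deposited and -1.67 after scaling, the latter below that of the 40. KIF20A was at -2.66 ± 0.27 (SE, limma adjusted p = 1.67e-06), CDC20 at -2.51 ± 0.31 (adjusted p = 1.42e-05) and CCNB1 at -0.87 ± 0.31 (adjusted p = 0.022) after scaling. As deposited these were -0.63, -0.48 and 1.16, so that CCNB1 changed sign. With replicate 1 of EV doxycycline left out there were 4 higher calls as deposited, with replicate 3 of EV vehicle left out 2, and with replicate 2 of EV doxycycline or of TFEB vehicle left out 1.

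**Figure D5:**
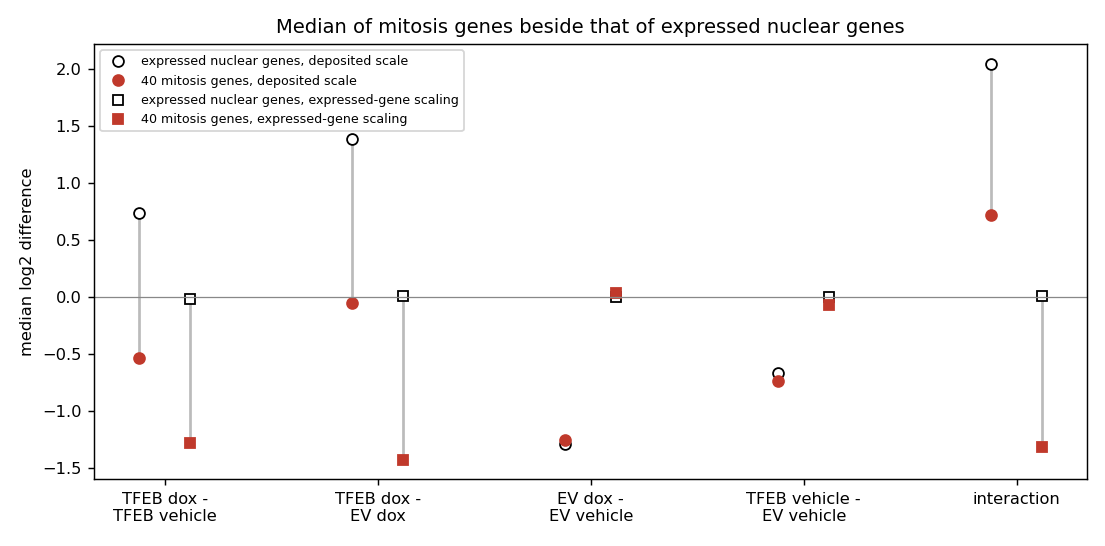
Median log2 difference of the 40 mitosis genes (red) and of expressed nuclear genes (open) in each comparison, on the deposited scale (circles) and after expressed-gene scaling (squares). A red mark lies 1.26 to 1.44 below its open mark wherever TFEB doxycycline is compared and close to it in EV doxycycline and in TFEB vehicle, on both scales.

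Other genes of mitosis were read from lists outside the 40, between TFEB doxycycline and TFEB vehicle. Their counts stand beside the shares over expressed nuclear genes given above, 33.2% lower and 34.4% higher after scaling and 3.51% and 31.5% as deposited, and their medians beside -0.02 and 0.73. Of 20 other spindle genes, 19 fell after scaling and 3 as deposited, and 0 rose, with medians of -1.39 and -0.64. KIF15, a kinesin that works beside KIF11, had 801, 768 and 747 in EV vehicle, 732, 770.1 and 794 in EV doxycycline, 727, 704 and 734 in TFEB vehicle, and 175, 119 and 158 in TFEB doxycycline after scaling, with TFEB doxycycline far below the controls. It differed by -2.27 ± 0.14 after scaling and -1.53 ± 0.48 as deposited (SE). KIFC1, a motor of the opposite direction, differed by -1.99 and FAM83D, a spindle protein, by -1.91 after scaling, and by -1.25 and -1.19 as deposited.

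Of 27 other kinetochore and checkpoint genes, 24 fell and 2 rose after scaling, and 2 fell and 2 rose as deposited, with medians of -1.30 and -0.55. The 2 that rose were MAD1L1 and MAD2L2. MAD1L1, the kinetochore partner of MAD2L1, had 441, 433 and 482 in EV vehicle, 402, 404 and 565 in EV doxycycline, 477, 434 and 464 in TFEB vehicle, and 1412, 1189 and 1086 in TFEB doxycycline after scaling, the 3 TFEB doxycycline libraries being the highest. Its log2 difference was 1.41 ± 0.15 (SE, limma adjusted p = 7.81e-07) after scaling and 2.16 ± 0.48 (adjusted p = 0.000519) as deposited. MAD2L2, a relative of MAD2L1 with a part in DNA repair, differed by 1.05 ± 0.17 and 1.80 ± 0.50. CENPM, of the inner kinetochore, differed by -2.26 ± 0.26 and -1.52 ± 0.41.

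Of 16 other mitotic entry genes, 11 fell and 3 rose after scaling, and 2 fell and 2 rose as deposited, with medians of -1.11 and -0.37. CDC25A, the third CDC25 phosphatase, differed by -2.15 after scaling and -1.41 as deposited. PPP2R2D, a subunit of the phosphatase that opposes CDK1, rose by 0.65 and 1.40, and CCNF, a cyclin that directs protein destruction, by 0.62 and 1.37. ENSA, an inhibitor of that phosphatase, rose by 0.46 after scaling alone. Of 17 genes of the anaphase promoting complex and its regulators, 6 fell and 2 rose after scaling, and 1 fell and 2 rose as deposited, with medians of -0.17 and 0.57. These lower counts are near the share of expressed nuclear genes called lower. UBE2S, the enzyme that lengthens ubiquitin chains for that complex, rose by 0.87 and 1.62, while UBE2C, which starts the chains, fell after scaling. ANAPC13, a small subunit, rose by 0.85 and 1.60, and FBXO5, an inhibitor of the complex, differed by -2.15 and -1.41.

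Of 17 cohesin and condensin genes, 13 fell and 3 rose after scaling, and 1 fell and 2 rose as deposited, with medians of -1.22 and -0.47. NCAPG2, a subunit of condensin II, had 513, 508 and 712 in EV vehicle, 632, 599.5 and 697 in EV doxycycline, 501, 521 and 689 in TFEB vehicle, and 1942, 1449.7 and 1527 in TFEB doxycycline after scaling, with TFEB doxycycline above all controls. It differed by 1.52 ± 0.16 and 2.27 ± 0.50 as deposited (SE), and PDS5A, which regulates cohesin, by 1.23 and 1.99. STAG2, a cohesin subunit, rose by 0.39 after scaling alone. CDCA5, sororin, which protects cohesin, differed by -2.18 and -1.43.

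Of 19 genes of the DREAM and MuvB complexes and of the E2F family, 10 fell and 0 rose after scaling, and 3 fell and 1 rose as deposited, with medians of -0.56 and 0.19. The gene that rose was LIN52, a subunit of the MuvB core (1.06 ± 0.36). The 3 that fell were E2F1, E2F8 and E2F2, which control genes of the cell cycle: they differed by -2.62, -2.56 and -2.25 after scaling and -1.87, -1.82 and -1.50 as deposited. MYBL2, the MuvB partner before FOXM1, had 2752, 2576 and 2209.9 in EV vehicle, 2452, 1602 and 1824 in EV doxycycline, 2909.5, 2860.1 and 2211 in TFEB vehicle, and 1334, 802 and 700.3 in TFEB doxycycline after scaling and differed by -1.54 ± 0.21 (SE, limma adjusted p = 1.75e-05), and by -0.79 ± 0.56 as deposited (adjusted p = 0.353). LIN9, a core subunit, differed by -1.49 ± 0.26 and -0.75 ± 0.37. CDKN1A, the inhibitor of cyclin-dependent kinases known as an arm of p53, had 22.9 to 158 in the controls and 4513, 4821 and 4681 in TFEB doxycycline after scaling. Its log2 difference was 6.71 ± 0.31 (adjusted p = 7.79e-11) after scaling and 7.46 ± 0.38 as deposited. The relation of CDKN1A to the mitosis genes was not tested.

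TFEB, CDKN1A and the 18 genes of these lists chosen by size that were called as deposited were refitted with each library left out. The deposited-scale call of 14 of these 20 ended in at least 1 of 12 fits. Leaving out 1 library ended the scaled call of 2 (CCNF and ANAPC13). The highest adjusted p reached as deposited was 0.0509 for MAD2L2, 0.0665 for PDS5A, 0.0767 for ANAPC13, 0.142 for UBE2S, 0.178 for CCNF and 0.224 for PPP2R2D, each without TFEB vehicle replicate 1. It was 0.0764 for KIF15, 0.0941 for CDCA5 and 0.118 for FBXO5 without TFEB vehicle replicate 3. It was 0.0518 for CENPM, 0.0909 for FAM83D, 0.148 for CDC25A and 0.155 for E2F2 without TFEB doxycycline replicate 3, and 0.135 for KIFC1 without TFEB doxycycline replicate 2. The deposited calls of MAD1L1, NCAPG2, E2F1, E2F8, TFEB and CDKN1A were kept in all 12.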

How the data were processed

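Total RNA from 12 HL60 samples (4 groups of 3) was sequenced with a NuGEN Ovation FFPE kit, per the labels' protocols, which list doxycycline for every sample; treatment was taken from the sample titles. STAR 2.5.3a and HTSeq 0.6.1 were used, per the submitters' processing notes. Genome build, annotation and strand setting stay not given in the sources used here. Values of near-identical copies and of antisense partners are uncertain for that reason. The authors deposited 1 normalized signal value per gene and library, read numbers divided by 1 factor per library. Whole reads were recovered from the steps of the values (100% whole at a tolerance of 0.01); the step was within 1% of 1 in replicate 2 of EV vehicle and in replicate 3 of TFEB vehicle, so there whole reads and rounded values look alike.

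The test was limma 3.58.1 (R 4.3.3) on log2(value + 1) over the 23128 genes with a mean of at least 10: 1 mean per group, variance trend, two-sided, Benjamini-Hochberg adjusted p threshold 0.05. Fold changes are on the log2(value + 1) scale. Errors are SE of the fit unless named SD. Expressed-gene scaling divided each library by its median ratio over genes that are not mitochondrial and average at least 200. Alternatives were a pseudocount of 5, no filter, other scalings, a replicate block, each library left out, and recovered reads tested with edgeR 4.0.16 or DESeq2 1.42.0. Before use, the fit was run on simulated data whose libraries had even levels of expressed genes. The simulation could therefore not test how the scalings act on the uneven levels found here. The precision of low genes is limited by depth, 4474007 reads in the shallowest library.

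The 40 members, the other lists, the tests and expressed-gene scaling were chosen with earlier results of these data known. Named with values were TFEB, members called in TFEB doxycycline against TFEB vehicle or in the interaction, in each role the member with the highest mean and the 2 with the largest difference (mean of at least 50), and a fixed set of 11; the other members, PTTG1, CENPA and CENPE among them, and ENSA, STAG2 and LIN52 were added after their values were seen. Of each other list up to 3 called genes with the largest difference were named, and CDKN1A, MYBL2, LIN9 and E2F1 in any case. Replicate numbers were taken to pair samples only where the deviations of all 3 same-numbered pairs correlated over 0.1, which held for EV vehicle with EV doxycycline (0.21, 0.40 and 0.72) and with TFEB vehicle (0.46, 0.63 and 0.49). P-values set each difference against the spread of libraries within groups, shared over the 4 groups. They do not cover differences between separately made lines. Promoters are from RefSeq, GRCh38.p14.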

Additional observations from a re-analysis of the deposited data

Results flagged for a closer look

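The response to doxycycline differed between the lines for 38 of the 40 mitosis genes after expressed-gene scaling, by the interaction term of limma, and for 0 of 40 as deposited. All 38 were lower calls. After scaling 57.8% of all genes tested and 29.9% of expressed nuclear genes were called lower, and 11% and 31.1% higher. On the deposited scale the interaction was called higher for 4 of 27 other kinetochore and checkpoint genes, 0 of 20 spindle genes, 3 of 16 mitotic entry genes, 11 of 17 genes of the anaphase promoting complex, 4 of 17 cohesin and condensin genes and 6 of 19 DREAM and MuvB genes, against 29.2% of all genes tested and 62.6% of expressed nuclear genes. Among TFEB, CDKN1A and the genes of these lists named by size or in any case it was called for 10. ENSA, STAG2 and LIN52 were not looked at for this count. Its log2 size there was 7.74 for TFEB, 6.95 for CDKN1A, 3.61 for PDS5A, 3.55 for MAD2L2, 3.45 for MAD1L1, 3.39 for NCAPG2, 3.36 for UBE2S, 3.29 for PPP2R2D, 2.73 for ANAPC13 and 2.48 for CCNF. The median of expressed nuclear genes in that comparison was 2.04. After expressed-gene scaling the sizes were 5.71, 4.94, 1.57, 1.51, 1.42, 1.36, 1.32, 1.26, 0.70 and 0.44 in the same order, and ANAPC13 (adjusted p = 0.0827) and CCNF (0.116) were no longer called. The interaction of the other 8 was called on both scales and opposite in sign to the scaled interaction of the 40. Of these 8, PDS5A, MAD2L2, MAD1L1, NCAPG2, UBE2S and PPP2R2D come from the lists outside the 40. They were named for a large difference between TFEB doxycycline and TFEB vehicle, which is part of the interaction. That choice favours large interactions of the same sign, so their sign is no separate result.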

How the results depend on the processing

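The counts of mitosis genes depended on how libraries were scaled and the cause was not tested. Given as lower calls in TFEB doxycycline against TFEB vehicle, against EV doxycycline, in EV doxycycline against EV vehicle and in the interaction, they were 1, 1, 17 and 0 as deposited, 21, 12, 9 and 2 with TMM, 38, 38, 2 and 38 with equal totals, 38, 37, 3 and 33 with equal upper quartiles, 38, 38, 0 and 38 with expressed-gene scaling, 23, 11, 8 and 2 with edgeR and 15, 5, 22 and 1 with DESeq2. Dropping the filter on low values changed the third to 11, where 3532 of 55589 genes were called lower. Shares as deposited and with expressed-gene scaling stand above. Over the 23128 genes tested, lower calls in that order were 2146, 3544, 3848 and 5612 with TMM. Equal totals gave 6673, 14309, 1883 and 13398, and equal upper quartiles 5061, 11350, 2323 and 11629. The counts were 2196, 3798, 3372 and 5641 with edgeR and 1592, 2719, 5213 and 3297 with DESeq2. Higher calls in EV doxycycline were 1 with equal totals and 2 with expressed-gene scaling, and in the interaction 1 with a pseudocount of 5 and 1 with DESeq2. TFEB vehicle against EV vehicle stayed at 0 in all.

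Over all groups same-numbered libraries correlated at -0.22 to 0.72 (median 0.35, 14 of 18 pairs over 0.1) and others at -0.70 to 0.61 (median -0.23). In the sections before this one the block is therefore given only where all 3 pairs passed. The block counts here cover every comparison, including those with TFEB doxycycline, whose pairs did not all pass. Each group was centred on its own mean, so positive same-numbered pairs push the others negative. The median of the others is therefore no separate sign of pairing. In TFEB vehicle against EV vehicle, which passed, the block changed no call of the 40. With the replicate block the lower counts were 3, 2, 27 and 0, with 1 higher call against EV doxycycline and 2 in the interaction. With the block and expressed-gene scaling they were 39, 38, 0 and 38, with 4 higher calls in EV doxycycline. Over all 23128 genes tested the block gave 1352, 1524, 6755 and 1744 lower calls, and 5452, 13904, 1731 and 13932 with expressed-gene scaling.

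Leaving out each library in turn, over both scales, gave 0 to 39, 0 to 39, 0 to 36 and 0 to 38 lower calls and, against EV doxycycline, in EV doxycycline and in the interaction, 0 to 2, 0 to 3 and 0 to 4 higher ones. With expressed-gene scaling alone the lower calls were 34 to 39, 38 to 39, 0 to 1 and 35 to 38.

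From the deposited scale to expressed-gene scaling, the number of the 40 with a positive difference went from 4, 19, 0 and 37 to 0, 0, 22 and 0 in the order above. Among genes followed singly (all 40 in TFEB doxycycline against TFEB vehicle, CCNB1, CDC20 and KIF20A elsewhere), signs turned with a call as follows, with equal totals, equal upper quartiles and expressed-gene scaling (with or without the block). BUB3 in TFEB doxycycline against TFEB vehicle was -0.80, -0.64 and -0.69, and PTTG1 -0.69, -0.54 and -0.58. CCNB1 against EV doxycycline was -0.93, -0.64 and -0.87. With expressed-gene scaling EV doxycycline gave 0.12 for CCNB1, 0.80 for CDC20 (0.65 with equal totals) and 0.47 for KIF20A. The interaction of CCNB1 was -0.87 (-0.82 with equal totals). AURKB (-0.68) and CENPA (-0.64) turned with expressed-gene scaling without a call. The block called AURKB at that value, in a comparison whose pairs did not all pass. Over left-out libraries on both scales these ranged from -0.77 to 0.26 (BUB3), -0.81 to 0.49 (PTTG1), -1.06 to 0.30 (AURKB), -0.77 to 0.31 (CENPA), -1.07 to 0.64 (CCNB1 against EV doxycycline), -1.38 to 0.32 (CCNB1 in EV doxycycline), -0.89 to 1.05 (CDC20), -1.09 to 0.53 (KIF20A) and -1.08 to 1.38 (interaction of CCNB1). Over 74 gene results under 34 alternatives each, 1637 values kept their call or lack of one, 719 gained the call and 67 lost it. Another 93 changed sign with a call in at least 1 of the fits compared. Sign changes without a call, as in AURKB and CENPA, are among the 1637.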
